A study of Mus musculus with 17 samples.

Results

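The 9 wild-type kidneys of a mouse RNA-seq series were described gene by gene and compared as 2 library sets: replicates 1 to 6 (set 1, 6 libraries) and replicates 7 to 9 (set 2, 3 libraries). They are 9 of 17 samples. The other 8, kidneys with stabilised beta-catenin under Foxd1-Cre or Six2-Cre, were not used. All 9 are labelled wild type, of mixed strain and of embryonic stage E12.5, and the labels name neither the library sets nor a difference between them. Whether a library holds 1 embryo or several, and whether the replicates are litter mates, is not given, so p-values measure only the spread between these samples, which may be technical.

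At E12.5 the mouse kidney holds a branching epithelial tree, the ureteric bud, whose tips are capped by nephron progenitors. The progenitors make Gdnf, a growth factor that signals through Ret and Gfra1 on the bud, and some of them respond to bud Wnt ligands and start to form epithelium. Around them lies stroma that arises from Foxd1-expressing cells, and vessels and blood cells run between. Most messenger RNAs end in a poly(A) tail. The mRNAs of replication-dependent histones end instead in a short stem-loop, and the RNA components of RNase MRP and RNase P, the spliceosomal small nuclear RNAs and the small nucleolar RNAs are short, structured and do not code for protein.

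A few sequences show what the RNA classes that separated the library sets look like. The histone stem-loop was searched on the transcript strand, as GGNNC followed directly by TTTTN and AGNNCC (N is any base), in all GENCODE release 21 transcripts (GRCm38) of a gene. It stood in 37 of the 58 replication-dependent histone genes kept for testing (63.8%), in 26 of 12366 other protein-coding genes (0.210%) and in 64 of all 13398 kept genes with a transcript (0.478%). A gene without a match is not shown to lack the stem-loop, because an annotated transcript can stop before it. The windows of 6 histone genes follow with the match in capitals: 3 H4 genes among those with the largest differences between the sets, the linker histone gene Hist1h1c, and 2 with smaller differences, Hist3h2ba and Hist1h1t.
Hist1h4f: tctcaaaGGCCCTTTTCAGGGCCacccact
Hist1h4m: aactaaaGGCCCTTTTCAGGGCCatc
Hist1h4h: aaccaaaGGCCCTTTTCAGGGCCgcccaca
Hist1h1c: tccaaaaGGCTCTTTTCAGAGCCaccactc
Hist3h2ba: acccaaaGGCTCTTTTCAGAGCCaccttcc
Hist1h1t: acccaaaGGCTCTTTTAAGAGCCacttaca

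The next sequences are whole small RNAs from the same transcripts, chosen because they span the observed differences. Rmrp, the RNA of RNase MRP (chr4:43492788-43493058, minus strand), ranked first of all genes in set 2. Rnu12 and Rnu11 are the U12 and U11 small nuclear RNAs of the minor spliceosome (chr15:83149644-83149794, plus strand, and chr4:132270080-132270213, minus strand). Snora68 (chr8:70895759-70895889, minus strand) is an H/ACA small nucleolar RNA, of the kind that guides pseudouridylation, with its ACA box in capitals. Snord69 (chr14:31014287-31014366, minus strand) and Snord104 (chr11:106500993-106501062, plus strand) are C/D small nucleolar RNAs, of the kind that guides 2'-O-methylation, with boxes C and D in capitals.
Rmrp: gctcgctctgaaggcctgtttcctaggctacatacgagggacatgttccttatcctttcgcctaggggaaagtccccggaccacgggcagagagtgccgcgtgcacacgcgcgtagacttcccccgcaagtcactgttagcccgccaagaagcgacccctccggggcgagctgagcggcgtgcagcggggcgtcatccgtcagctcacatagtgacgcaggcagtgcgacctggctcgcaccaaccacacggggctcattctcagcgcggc
Rnu12: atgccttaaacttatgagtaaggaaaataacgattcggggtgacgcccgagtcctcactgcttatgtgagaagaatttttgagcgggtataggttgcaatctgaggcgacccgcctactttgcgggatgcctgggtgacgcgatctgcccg
Rnu11: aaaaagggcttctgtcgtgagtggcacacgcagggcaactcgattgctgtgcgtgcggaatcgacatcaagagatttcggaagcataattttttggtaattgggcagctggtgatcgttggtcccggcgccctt
Snora68: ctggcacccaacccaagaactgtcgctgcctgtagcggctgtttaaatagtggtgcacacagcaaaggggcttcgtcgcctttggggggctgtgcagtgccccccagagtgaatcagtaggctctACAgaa
Snord69: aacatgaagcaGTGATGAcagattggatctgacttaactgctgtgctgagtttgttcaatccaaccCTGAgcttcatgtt
Snord104: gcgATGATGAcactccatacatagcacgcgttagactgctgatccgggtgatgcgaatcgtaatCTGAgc

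The libraries of set 2 were shallower and listed more genes at 0. The deposited values gave an estimated depth of 29500000 to 35500000 reads for the libraries of set 1, and of 5370000 to 5890000 for those of set 2, and 5312 to 5804 against 7785 to 7891 genes were listed at 0. For a transcript of 1 kilobase a single read was worth 0.0282 to 0.0339 FPKM in set 1 and 0.17 to 0.186 FPKM in set 2, so low values were less precise in set 2. FPKM is the number of fragments scaled by transcript length and by the mapped fragments of the library. Of 24432 gene IDs, 13450 reached 1 FPKM in at least 3 of the 9 libraries and were tested. On log2(FPKM + 1) over these genes, Pearson's r across genes was 0.972 to 0.986 between libraries of set 1, 0.959 to 0.962 within set 2 and 0.840 to 0.860 between the sets. Xist was high and Y-linked genes such as Eif2s3y were near 0 in replicates 2, 6 and 7, so both sets hold libraries of both kinds.

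Most genes kept a similar level in both sets, and many differences were small but larger than the spread within a set. For 91.4% of the 13450 genes the set means differed by less than 1 on the log2(FPKM + 1) scale, and the median difference, set 2 minus set 1, was -0.12. With limma, 9034 genes (67.2%) passed an adjusted p of 0.05, 3483 higher in set 2 (25.9%) and 5551 lower (41.3%). The values of the sets did not overlap for 60.6% of the genes tested. A difference of at least 1 on that scale, here called large, was found for 569 genes higher in set 2 (4.23%) and 466 lower (3.46%), which together are 7.7% of the genes tested. The split of the calls followed the scaling of the libraries: 38.6% of the calls were higher in set 2 with the values as deposited, 51.2% after every library was rescaled to the same sum, which moved the median difference to 0.000731, and 47.4% after median-ratio scaling (median -0.04). The plot of set means shows where the classes stand.

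**Figure D1:**
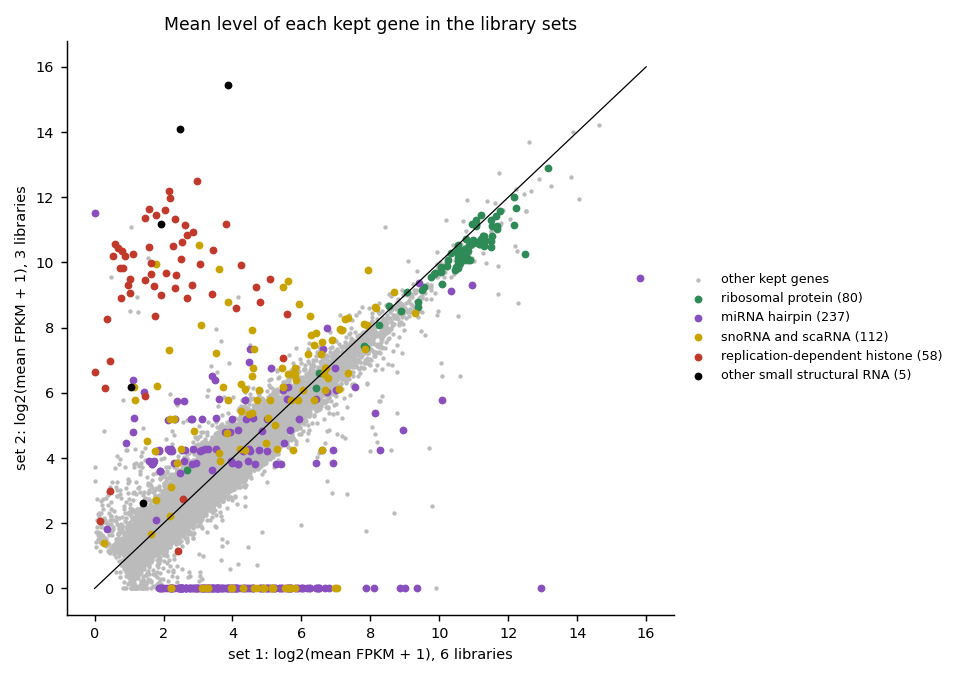
Each point is 1 of the 13450 kept genes, with the log2 of its mean FPKM + 1 in set 1 (6 libraries) on the x axis and in set 2 (3 libraries) on the y axis; the line marks equal means. Ribosomal protein genes lie a little under the line, the 58 replication-dependent histone genes and 5 other small structural RNAs mostly far above it, and many microRNA hairpins at 0 on the y axis.

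The most abundant RNAs in both sets were those of translation, mitochondria and a few globin and chromatin genes. Of the 100 genes with the highest mean in each set, 69 were shared, and 37 of these code for ribosomal proteins. Of the top 500, 381 were shared (76.2% of each list): 238 were other protein-coding genes, 75 ribosomal protein genes and 29 nuclear genes of oxidative phosphorylation. Of the top 1000, 807 were shared (80.7%). The genes that entered the top 500 of set 2 alone included 49 replication-dependent histone genes and 19 small nucleolar or Cajal body RNAs. Those in the top 500 of set 1 alone included 86 other protein-coding genes, 12 pseudogenes and 10 microRNA hairpins.

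Rpl41, a short ribosomal protein of the large subunit, had the highest level of its class in both sets. Its FPKM was lowest at 8455, median 8888 and highest at 9965 in set 1, and 7915, 7383 and 7543 in set 2. The sets did not overlap, and set 2 was lower by a small margin (log2 difference -0.25, SE 0.06, adjusted p = 0.0061). This direction turned to 0.27 when differences were centred within cells of transcript length and GC content, an alternative added after the data had been seen and described below. Rpsa, a small-subunit protein, had 4817 ± 273 FPKM (SD, n = 6) in set 1 and 3233 ± 185 (SD, n = 3) in set 2, and Rps28 4579 ± 299 and 4144 ± 223, a difference that did not pass the test.

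Among other nuclear protein-coding genes, the highest by the lower of the set means were Rps27rt with 9767 and 5210 FPKM and Eef1a1, a translation elongation factor, with 6465 and 4627. The globin Hbb-y and Ptma, prothymosin alpha (3653 ± 169 and 3100 ± 146), came next, before Hmga1b, a copy of the chromatin protein gene Hmga1, with 5840 and 3079. Rps27rt and Hmga1b shared 95.3% and 94.1% of their 25-base stretches with other genes, mainly Rps27 and Hmga1, so that their values cannot be separated from those of their parents. Ppia, a prolyl isomerase, followed with 4253 ± 127 and 2565 ± 99.6 FPKM. The splicing factors Hnrnpa2b1 (4922 and 1299 FPKM) and Hnrnph1 (4690 and 1458) ranked 17 and 20 of all genes in set 1, 104 and 85 in set 2, and differed by more than 1 on the log2 scale (-1.93 and -1.69). Of 13 heat shock and chaperone genes, 3 were called higher in set 2, 1 lower and 9 not called, and 7 were called higher after rescaling to the same sum. Hsp90aa1 was higher (368 ± 38.0 and 526 ± 5.08, 0.52). Hsp90ab1 had 1439 ± 132 and 1365 ± 23.0 FPKM and Hspa8 1347 ± 144 and 1498 ± 136, and neither difference passed the test. Among all genes tested, 25.9% were called higher in set 2 and 41.3% lower. Of 20 housekeeping genes, 3 were called higher in set 2, 15 lower and 2 not called, with a median of -0.45. Actb, cytoplasmic beta-actin, went the other way: its FPKM was lowest at 1014, median 1192 and highest at 1305 in set 1, and 2599, 2465 and 2429 in set 2, a log2 difference of 1.09 (SE 0.07, adjusted p = 1.7e-06).

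Mitochondrial mRNAs summed to similar levels in both sets. The sum over 7 of them was 17193 to 26400 FPKM in set 1 and 18841 to 24149 in set 2 (log2 difference 0.03, exact permutation test, two-sided, p = 0.786). The sign of this small difference changed when replicate 1, 5, 8 or 9 was left out, with values from -0.03 to 0.15 over the libraries left out in turn. mt-Co2 and mt-Co1, subunits of cytochrome oxidase, had 7526 ± 1079 and 5609 ± 898 FPKM in set 1 against 6031 ± 829 and 4379 ± 462 in set 2, and neither was called. mt-Atp6, a subunit of ATP synthase, had 3423 ± 462 and 6924 ± 890 FPKM and was called higher in set 2 (1.02, adjusted p = 7.9e-05), although 99.5% of its 25-base stretches also lie in a nuclear copy, Gm10925. Of the mitochondrial ribosomal RNAs, mt-Rnr1 was lower in set 2 (151.3 ± 28.4 and 23.5 ± 10.4 FPKM, -2.73) and mt-Rnr2 higher (972 ± 152 and 1291 ± 233, adjusted p = 0.034). After centring mt-Rnr2 was not called (adjusted p = 0.0819), and mt-Co1 and mt-Co2 were called lower (-0.42 and -0.39).

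Globin RNA of circulating red cells stood beside these in every library. Hbb-y, the main embryonic beta-like globin, had a lowest value of 2175, a median of 2901 and a highest value of 4479 FPKM in set 1, and 3362, 3504 and 3985 in set 2. The sets overlapped and the difference was not called. Hba-a1, an alpha globin, had 1768 ± 370 and 3891 ± 492 FPKM (1.16, adjusted p = 0.00021). The late beta globins Hbb-bs (544 ± 135 and 1057 ± 125) and Hbb-bt (139 ± 55.0 and 333 ± 29.4) were also called higher in set 2. The 9 erythroid genes kept, of 15 in the table, had 3 called higher, 1 lower and 5 not called, and their summed level was 4542 to 8494 FPKM in set 1 and 8867 to 10700 in set 2. In bulk tissue, more cells of a type and more RNA per cell cannot be told apart.

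The regulators of the main kidney lineages were present in all 9 libraries at levels that mostly moved little between the sets. All 25 nephron progenitor genes, all 20 committed nephron genes, all 20 cortical stroma genes and all 20 endothelial genes of the lists passed the filter, as did 28 of 30 ureteric bud genes and 18 of 19 genes of medullary stroma and ureteric mesenchyme. Of these 131 kept genes, the few with large differences were Gata3, Sox9, Bnc2, Fat4 and Lef1, all higher in set 2, and Cldn5, lower. The text gives FPKM, a level per length, for comparisons between genes. The counts of called genes in each list below stand beside 25.9% higher and 41.3% lower among all genes tested.

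Nephron progenitor genes split between the directions. Of 25, 10 were called higher in set 2, 7 lower and 8 not called, with a median difference of 0.13 against -0.12 for all genes tested. Ncam1, a cell adhesion molecule, was the most abundant: its FPKM was lowest at 190, median 258 and highest at 290 in set 1, and 353, 455 and 359 in set 2, with no overlap (0.65, SE 0.14, adjusted p = 0.0020). Six2, the homeobox factor that maintains the progenitors, had a lowest value of 93.0, a median of 111 and a highest value of 125 FPKM in set 1, and 87.5, 84.3 and 70.6 in set 2. The sets did not overlap, and set 2 was lower (-0.42, SE 0.10, adjusted p = 0.0043). The difference for Six2 turned to 0.06 (adjusted p = 0.598) and that for Ncam1 shrank to 0.28 (adjusted p = 0.0550) after centring by transcript length and GC content.

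Other regulators of the progenitors had lower levels. Hoxa10, a posterior Hox factor, had 77.3 ± 3.56 and 74.4 ± 2.21 FPKM, and Wt1, a zinc finger factor needed for kidney formation, 72.1 ± 4.03 and 78.8 ± 3.96, and neither was called. Sall1 (59.4 ± 4.48 and 77.6 ± 7.70) and Pax2 (54.0 ± 3.69 and 65.6 ± 4.22), both needed for the bud to invade the mesenchyme, were called higher in set 2 by 0.38 and 0.28. Eya1, a coactivator for Six2 and its relatives, had 49.2 ± 6.34 and 57.1 ± 4.22 FPKM and was not called. Cited1, a marker of the least committed progenitors, was lower in set 2 (45.7 ± 5.18 and 36.0 ± 4.296, adjusted p = 0.018), as was Uncx (75.3 ± 4.13 and 43.2 ± 3.49, -0.79). Gdnf had 20.3 ± 1.85 and 24.4 ± 2.78 FPKM and was called higher by 0.25. The largest rises of the list were Six4 (3.99 ± 0.36 and 8.78 ± 0.41, 0.97), the integrin Itga8 (16.2 ± 2.70 and 28.6 ± 1.88, 0.80) and the Slit receptor Robo2 (59.5 ± 9.82 and 102 ± 5.76, 0.78), whose longest annotated transcripts have 6817, 5812 and 8591 bases. The value for Robo2 was 0.15 (adjusted p = 0.261) after centring.

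Genes of the committed nephron were the most level of the lineage lists. Of 20, 15 were not called, 3 were higher in set 2 and 2 lower, with a median of -0.06, which turned to 0.07 after rescaling to the same sum. Wnt4, the signal that drives progenitors into epithelium, had 22.2 ± 2.60 and 18.9 ± 1.41 FPKM (adjusted p = 0.065). Pax8 (23.8 ± 3.77 and 22.4 ± 1.75) and Lhx1 (13.6 ± 3.24 and 14.9 ± 3.83), factors of the renal vesicle, overlapped between the sets. Ccnd1, a cyclin, was the most abundant of the list with 134 ± 15.3 and 127 ± 7.71 FPKM. Jag1, a Notch ligand (11.2 ± 1.98 and 18.4 ± 1.67, 0.68), and Cdh6, a cadherin (5.74 ± 0.88 and 9.40 ± 1.36, 0.63), were called higher, and Bmp7 (36.7 ± 2.40 and 27.1 ± 3.61, -0.43), a survival signal for progenitors, lower.

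Of 28 ureteric bud genes, 9 were higher in set 2, 7 lower and 12 not called, with a median of -0.03, which turned to 0.09 after rescaling to the same sum. Of all genes tested, 25.9% were higher and 41.3% lower. Ret had a lowest value of 8.27, a median of 10.7 and a highest value of 14.9 FPKM in set 1, and 11.6, 12.6 and 10.02 in set 2. The sets overlapped, and the difference was 0.02 (SE 0.16). Its co-receptor Gfra1 was more abundant (38.6 ± 3.49 and 44.7 ± 1.41) and called higher by 0.21. Calb1, a calcium-binding protein of the bud, had 62.2 ± 5.95 and 71.9 ± 2.99 FPKM, and Etv4, a factor induced by Ret, 61.2 ± 3.82 and 48.4 ± 4.62. Both were called, Calb1 higher and Etv4 lower, but the differences turned to -0.10 and 0.15 after centring. Etv5, the partner of Etv4, was not called (43.1 ± 4.09 and 47.6 ± 4.17), nor was the epithelial marker Epcam (42.9 ± 2.64 and 40.0 ± 3.43).

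The ureteric bud list held 3 of the 6 large differences among the lineage genes. Gata3, a zinc finger factor of the nephric duct lineage, had 9.80, 9.65, 10.3, 10.3, 9.67 and 11.2 FPKM in replicates 1 to 6 and 23.9, 23.3 and 22.2 in replicates 7 to 9. Both sets were tight and far apart (1.11, SE 0.06, adjusted p = 2.8e-07), and the value was 1.31 after centring. Sox9, a factor of the bud tip that cartilage also uses, had 9.56 ± 2.05 and 21.2 ± 3.06 FPKM (1.09), and Bnc2, a zinc finger protein, 6.11 ± 0.63 and 17.4 ± 1.32 (1.38). Antisense genes overlap Gata3 in the annotation, and whether the counting used strand is not given in the sources used here, so its value is uncertain.

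**Figure D2:**
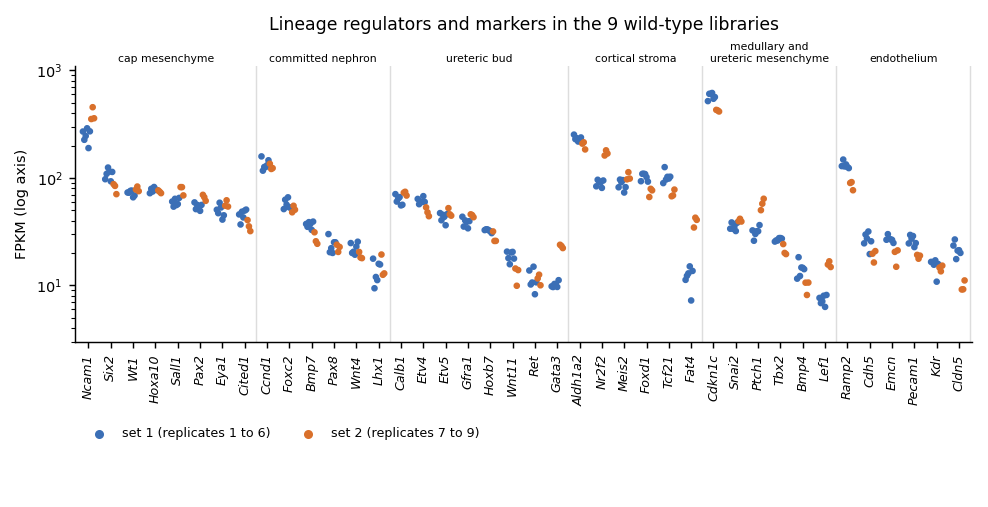
FPKM on a log axis for 40 lineage genes, 1 point per library, blue for set 1 and orange for set 2. Within a gene the libraries lie close together, and most genes have nearly the same level in both sets, while Gata3, Fat4 and Lef1 are higher and Cldn5 lower in set 2.

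Stromal genes were among the most abundant regulators. Of 20 cortical stroma genes, 8 were called higher in set 2, 7 lower and 5 not called, with a median of 0.03. Aldh1a2, an enzyme that makes retinoic acid, had a lowest value of 218, a median of 232 and a highest value of 253 FPKM in set 1, and 208, 214 and 184 in set 2. Set 2 lay just under set 1 (-0.20, SE 0.06, adjusted p = 0.016), and the value was 0.02 after centring. Foxd1, which defines the stromal progenitors, had 102 ± 7.97 and 74.1 ± 6.73 FPKM, and Tcf21, a helix-loop-helix factor, 103 ± 12.4 and 71.4 ± 5.67, both lower in set 2. The difference for Foxd1 kept its direction after centring (-0.46 and -0.32, adjusted p = 0.0109).

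Other stromal genes were higher in set 2. Nr2f2, an orphan nuclear receptor, had 89.7 ± 6.21 and 170 ± 9.58 FPKM (0.92), and 0.74 after centring. Fat4, a giant cadherin of the stroma that signals to the cap mesenchyme, had 11.3, 12.3, 12.9, 15.03, 7.24 and 13.6 FPKM in replicates 1 to 6 and 34.6, 42.6 and 40.7 in replicates 7 to 9. All 3 set 2 libraries lay well above the 6 others (1.65, SE 0.18, adjusted p = 4.1e-05). Fat4 has the longest transcript of the list (16109 bases), and its value after centring was 1.29.

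Of 18 genes of medullary stroma and ureteric mesenchyme, 8 were higher, 5 lower and 5 not called, with a median of 0.17. Cdkn1c, an imprinted inhibitor of the cell cycle, was the most abundant of all lineage genes (576 ± 39.5 and 423 ± 7.45 FPKM, -0.44), and its difference turned to 0.16 after centring. Ptch1, the Hedgehog receptor and target, had 31.5 ± 3.38 and 57.2 ± 6.96 FPKM (0.84). Lef1, a nuclear partner of beta-catenin, was at a low level in every library (7.34 ± 0.72 and 15.7 ± 0.97), with a large difference (1.01, adjusted p = 5.1e-06). Tbx18, a factor of ureteric mesenchyme, had 10.9 ± 2.60 and 10.5 ± 2.27 FPKM and was not called.

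Vessel genes leaned lower in set 2. Of 20 endothelial genes, 16 were called lower, 1 higher and 3 not called, with a median of -0.51. Ramp2, a receptor partner of vascular cells that shares 74.6% of its 25-base stretches with other genes, mainly Vps25, had a lowest value of 123, a median of 128 and a highest value of 148 FPKM in set 1, and 89.7, 91.4 and 76.8 in set 2. The sets did not overlap (-0.61), but the value was 0.00 after centring (adjusted p = 0.973). Cldn5, a tight junction protein, had 21.7 ± 3.13 and 9.82 ± 1.12 FPKM (-1.06, and -0.46 after centring). Pecam1, an adhesion molecule, had 26.2 ± 2.66 and 18.6 ± 0.80, and the receptor Kdr was not called (15.4 ± 2.30 and 14.5 ± 0.89). After centring, 7 of the 20 were called lower and none higher, with a median of -0.17, where 25.5% of all genes were called lower. Of 15 macrophage genes, 6 were lower, a share near the 41.3% of all genes, 1 was higher and 8 were not called, and after centring 1 was lower and 1 higher. The complement chain C1qa had the largest difference (5.89 ± 1.51 and 2.21 ± 0.78 FPKM, -1.11).

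Genes of most neighbouring organs were low in both sets, and some cartilage genes were higher. Of 11 cartilage genes 8 passed the filter, and Col2a1 had means of 23.9 and 18.6 FPKM and Col9a1 10.6 and 7.11 in sets 1 and 2. Of 20 neural and neural crest genes 7 passed the filter, of 15 adrenal and gonad genes 4, of 11 skeletal muscle genes 3 and of 12 liver and gut genes 4. The defining factors Nr5a1 (adrenal and gonad), Sox10 (neural crest) and Myod1 (muscle) were under 1 FPKM on average in both sets. Of the 4 liver and gut genes 2 were called higher and 1 lower: Afp, a liver and yolk sac protein, was higher in set 2 (0.39 ± 0.40 and 3.70 ± 0.70 FPKM) and Serpina1a, a liver protease inhibitor, lower (1.21 ± 0.26 and 0.11 ± 0.10). Of the 4 adrenal and gonad genes 2 were called lower, Inha (4.33 ± 1.29 and 1.26 ± 0.36) and Star (1.498 ± 0.14 and 0.38 ± 0.13). The muscle actin Actc1 was higher in set 2 (5.35 ± 1.15 and 12.8 ± 6.47). The part of attached tissue or blood in the differences between the sets was not tested.

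The clearest difference between the sets was in RNA classes. The summed FPKM of 12 of 14 classes differed with no overlap between the sets (exact permutation test, two-sided, 84 arrangements, p = 0.0119 for each, the smallest this design can give, and 0.0139 adjusted over the 14 classes). In set 2 the sums were higher for replication-dependent histones, for the RNAs of RNase MRP, RNase P and similar small structural RNAs, for small nuclear RNAs, for small nucleolar and Cajal body RNAs, for long noncoding RNAs and for zinc finger genes. The rise for long noncoding RNAs rests on a few entries, given below, that share sequence with histone genes or a Cajal body RNA. They were lower for microRNA hairpins, ribosomal proteins, nuclear oxidative phosphorylation genes, pseudogenes, other protein-coding genes and the remainder. The sums may not be independent: where FPKM is scaled by the mapped fragments, a rise in 1 class can lower others. Any further scaling between libraries is not stated. The upper quartile of FPKM lay between 15.1 and 15.6 in every library, while the totals ran from 823625 to 963729. In set 2 histones held 8.34% and small structural RNAs 7.81% of the total, and other protein-coding genes 49.6% against 54.0% in set 1. The part of this in the lower sums was not tested. Mitochondrial mRNA did not pass, nor did mitochondrial rRNA (1123 ± 174 and 1314 ± 227 FPKM, exact permutation test, p = 0.202, adjusted p = 0.218). For the remainder, which holds other biotypes and IDs without annotation, leaving out its highest gene turned the log2 difference from -0.78 to 0.21.

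**Figure D3:**
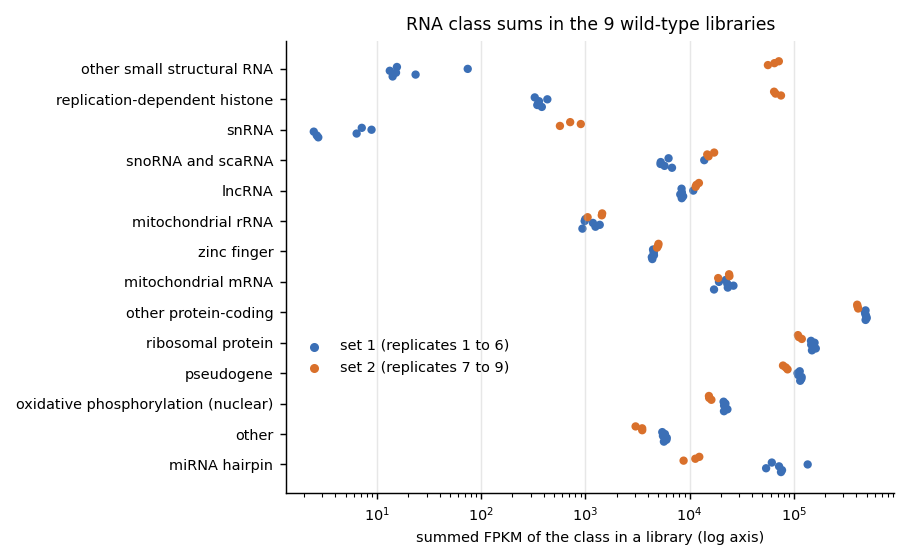
Summed FPKM of each RNA class in each library on a log axis, 1 point per library, blue for set 1 and orange for set 2, ordered by the difference between the sets. The other small structural RNAs and histones are separated by factors of 2481 and 188, while the 2 mitochondrial classes overlap.

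Replication-dependent histone genes were low in set 1 and among the most abundant in set 2. Their summed FPKM was lowest at 327, median 357 and highest at 432 in set 1, which is 0.0403% of the total, and 75499, 66891 and 64820 in set 2, or 8.34% of the total. Every set 2 library lay far above every set 1 library (log2 difference 7.55). Of 58 kept genes, 56 were called higher in set 2, 1 lower and 1 not called, with a median of 7.96. These genes come in clusters of near-identical copies, with a median of 57.5% of the 25-base stretches of a gene found in other genes, so the level of a single gene is uncertain while the sum is less so.

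All core families and the linker histones shared the difference. The 12 H4 genes, which form the nucleosome core with H3, summed to 74.0 ± 16.02 FPKM (SD, n = 6) in set 1 and 28998 ± 2202 (SD, n = 3) in set 2. The 14 H2B genes summed to 109 ± 15.8 and 15422 ± 1118 FPKM, the 16 H2A genes to 125 ± 8.34 and 10716 ± 1036, and the 10 H3 genes to 48.4 ± 5.92 and 8654 ± 1047. The 6 H1 genes, the linker histones, summed to 10.6 ± 1.83 and 5282 ± 273 FPKM. The H4 family had the largest median difference (9.73), and H2B the smallest (6.80).

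Hist1h4d was the most abundant histone gene in set 2 and ranked 10 of all genes there. It had 7.07, 6.11, 3.21, 6.40, 11.4 and 6.81 FPKM in replicates 1 to 6 and 6332, 5661 and 5433 in replicates 7 to 9. Hist1h4f, with the largest difference of the class (10.27, SE 0.45, adjusted p = 1.2e-07), had 0, 1.03, 4.43, 1.40, 3.45 and 1.44 FPKM and then 3391, 3132 and 3009. Hist1h2bn had 3.52 ± 1.91 and 3995 ± 339 FPKM, and Hist1h1d 0.73 ± 0.53 and 1302 ± 79.8. Hist1h2ba, a testis-type H2B gene, was listed at 0 in all 6 libraries of set 1 and had 99.3 ± 20.4 FPKM in set 2.

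The exceptions were few. Hist1h2aa, a testis-type H2A gene, was the single gene lower in set 2 (4.39 ± 1.84 and 1.20 ± 0.38 FPKM, -1.25, adjusted p = 0.0016 with limma), and it was not called after centring (-0.65, adjusted p = 0.0524). Hist2h2be had 4.88 ± 1.00 and 5.65 ± 0.75 FPKM and was not called. Hist3h2ba had the smallest called rise (43.2 ± 11.5 and 134 ± 13.2, 1.66), and Hist3h2a (26.9 ± 3.14 and 437 ± 32.5) and Hist1h4i (47.0 ± 14.5 and 338 ± 47.5), both among the 4 highest histone genes of set 1, differed by 3.98 and 2.86.

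The way the annotated transcripts end differed among the histone genes. The polyadenylation signal AATAAA stood in the last 50 bases of a transcript of 13 of the 58 histone genes (22.4%) and of 78.1% of other kept protein-coding genes. The median difference was 8.21 for 27 genes with the stem-loop and no AATAAA (2.86 to 10.27), 6.24 for 10 with both, and 7.25 for 21 genes with no match to the stem-loop. These medians describe sets of unequal size whose ranges overlap, and no test was made. The groups also depend on where the annotated transcripts stop. Some genes without a match have short models, such as Hist1h4k (chr13:21750194-21750505), and are not shown to lack the stem-loop. The capitals printed above are the same for Hist3h2ba and Hist1h1c, whose differences were 1.66 and 6.87.

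Genes of a separate list of histone variants did not follow. Of 11, none was called higher in set 2, 8 were lower and 3 not called, with a median of -0.30. After centring 3 were higher and 4 lower, with a median of -0.09, and H2afz was no longer called (-0.06, adjusted p = 0.311). H3f3a had 1222 ± 76.7 and 1008 ± 21.4 FPKM, H2afz 1002 ± 22.4 and 763 ± 5.18, and H3f3b 438 ± 27.3 and 440 ± 5.18. Of 20 proliferation genes, 4 were higher, 8 lower and 8 not called, with a median of -0.10. This is near all genes tested, of which 25.9% were higher and 41.3% lower, with a median of -0.12. Among the members, Mki67 was higher (50.8 ± 7.64 and 103 ± 1.33, 1.02, and 0.55 after centring) and Tyms lower (157 ± 3.89 and 79.7 ± 5.95, -0.97). The median of that list changed sign under rescaling.

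**Figure D4:**
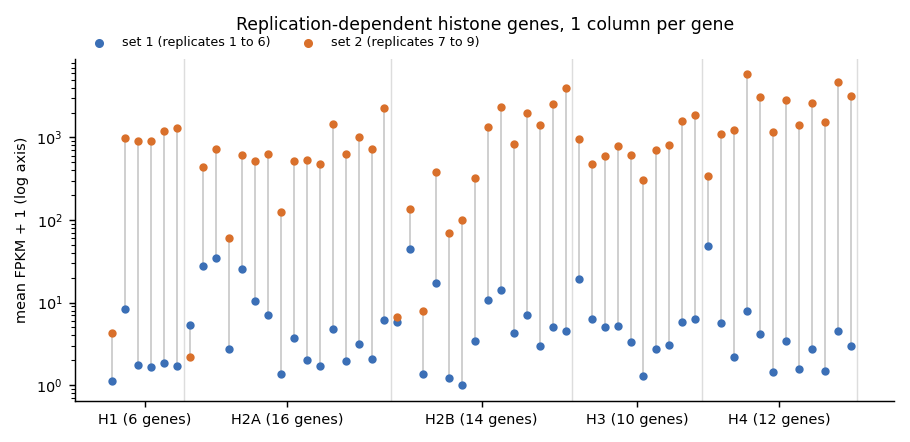
Mean FPKM + 1 on a log axis of the 58 kept replication-dependent histone genes, 1 column per gene, grouped by family and ordered by difference, blue for set 1 (n = 6) and orange for set 2 (n = 3). In 57 of the columns the orange point lies above the blue one, and 1 H2A gene, Hist1h2aa, is reversed.

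The small structural RNAs had the widest gap of any class. The sum over 12 genes was 14.2, 23.5, 15.3, 13.3, 74.4 and 15.6 FPKM in replicates 1 to 6 and 56557, 65292 and 71989 in replicates 7 to 9, or 0.0028% and 7.81% of the total. All 5 kept genes were called higher in set 2. Rmrp, with the sequence printed above, had 4.93, 6.78, 8.47, 4.61, 50.01 and 7.13 FPKM and then 37976, 46155 and 49703. Replicate 5 was highest in set 1 and still far under every library of set 2. Rpph1, the RNA of RNase P, which trims transfer RNA precursors, had 4.60 ± 3.24 and 17582 ± 1969 FPKM and ranked 3 of all genes in set 2. Rprl3, annotated as a relative of the RNase P RNA, had 2.81 ± 2.80 and 2340 ± 152, and Terc, the telomerase RNA, 1.07 ± 0.40 and 70.7 ± 11.7. Rmrp overlaps Ccdc107 on the other strand and Rpph1 overlaps Ccnb1ip1, which leaves part of their reads ambiguous.

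Rnu12 and Rnu11 were nearly unseen in set 1. Rnu12 was listed at 0 in 4 of the 6 libraries of set 1, with 4.12 FPKM in replicate 3 and 4.23 in replicate 6, and had 368, 375 and 334 FPKM in set 2 (7.70, adjusted p = 6.4e-06). Rnu11 was above 0 in set 1 in replicate 5 alone, at 6.17 FPKM, and had 197, 522 and 376 in set 2. The sum of the 5 small nuclear RNA genes was 2.48 to 8.89 FPKM in set 1 and 571 to 906 in set 2.

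Small nucleolar RNAs moved both ways. Of 34 kept H/ACA genes named Snora, 14 were called higher in set 2, 1 lower, and none was listed at 0 throughout set 2. Of 58 kept C/D genes named Snord, 7 were higher and 20 lower, and 21 were listed at 0 in all 3 libraries of set 2. These 21 passed the filter through set 1 alone, so the counts support no difference between the kinds. Of 7 Cajal body RNAs, 5 were higher and none lower. The annotated length differed with the kind: Snora genes had up to 196 bases and the shortest Snord gene 64, and among Snord genes those at 0 in set 2 were 6 of 12 up to 70 bases, 13 of 34 from 71 to 90, 2 of 8 from 91 to 120 and none of the 4 longer ones.

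The values of the shortest genes were near that of few reads. The smallest value above 0 in set 2 among Snord genes of up to 70 bases was 52.5 FPKM, and the 6 such genes at 0 in set 2 had set 1 means from 29.3 to 55.6. The part of depth in these zeros was not tested. Snord69 had 125, 90.6, 89.3, 107, 258 and 106 FPKM in set 1 and was listed at 0 in set 2, and Snord93 had 126 ± 53.0 and was listed at 0. Snord104, of similar size, was at 411 ± 130 and 540 ± 66.3 FPKM, and the sets overlapped (adjusted p = 0.10). Snora68 was higher in set 2 (244 ± 123 and 874 ± 230, 1.92) and Snora65 lower (630 ± 208 and 351 ± 66.6, -0.81), a call lost after centring (-0.20, adjusted p = 0.506). Both are shorter than the protein-coding genes that set the centring, so the centred value is uncertain. Scarna2 and Scarna13, which guide modification of small nuclear RNAs, had 2.43 ± 3.77 and 1000 ± 330, and 7.13 ± 2.77 and 1469 ± 41.5 FPKM. Snora65 and Snord69 lie within Rpl12 and Gnl3 on the same strand.

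MicroRNA hairpins were the class most reduced in set 2, and 1 entry held most of it. The sum over 995 hairpin genes was lowest at 54333, median 73932 and highest at 136141 FPKM in set 1, and 8774, 11370 and 12414 in set 2, or 8.67% and 1.31% of the total (log2 difference -2.82). Without the most abundant gene, Mir6236, the difference was -1.13, with the same direction and exact p. Of 237 kept hairpins, 99 were called lower, 12 higher and 126 not called, and 137 were listed at 0 in all libraries of set 2. Those 137 passed the filter through set 1 alone, so these counts describe genes partly chosen for being high there and support no direction. Mir6236 had 56055, 56162, 33297, 51310, 110101 and 40170 FPKM in replicates 1 to 6, the first rank in set 1, and 1795, 193 and 200 in replicates 7 to 9. Lars2, a mitochondrial leucyl-tRNA synthetase, and the long noncoding RNA Gm15564 were also highest in replicate 5 and low in set 2: Lars2 had 847, 729, 489, 702, 1657 and 583 FPKM and then 34.5, 10.3 and 11.5.

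Several hairpins lie within longer RNAs, and their values can be those of the host. All 60 of the 25-base stretches of Mir675 occur in H19, the imprinted noncoding RNA it is cut from. Mir675 had a lowest value of 7361, a median of 7511 and a highest value of 8996 FPKM in set 1 and was listed at 0 in set 2, while H19 itself had 2437 ± 114 and 1888 ± 64.2 FPKM (-0.37, and 0.12 after centring). Mir5114 within Scd2 (648 ± 124) and Mir8114 within Glul (515 ± 115) were likewise listed at 0 in set 2. Mir686 in Psmb5 (1967 ± 67.1 and 635 ± 141) and Mir546 in Ctdsp2 (1285 ± 185 and 562 ± 107) were lower, and Mir3064 in Ddx5 (682 ± 316 and 663 ± 354) was not called. In the other direction, the hairpin Gm26377, all within Eef1a1, was listed at 0 in set 1 and had 1046, 3400 and 4385 FPKM in set 2. Of the 87 kept hairpins wholly within other genes' transcripts, 56 were at 0 throughout set 2 and 49 were called lower. Of the other 150, 81 were at 0 and 50 were called lower.

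The mature microRNAs annotated in the 3 entries most turned on here follow, from RefSeq (GRCm38.p6), with the seed in capitals (bases 2 to 8). No seed is shared among them. A hairpin value in a library of long RNA need not be that of the mature microRNA.
mmu-miR-6236: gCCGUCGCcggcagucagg
mmu-miR-675-5p: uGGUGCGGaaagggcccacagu
mmu-miR-675-3p: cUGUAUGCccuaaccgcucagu
mmu-miR-5114: aCUGGAGAcggaagcugcaaga

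Long noncoding RNAs moved both ways. Of 475, 149 were called higher in set 2, 130 lower and 196 not called, with a median of -0.02, and the sum rose from 8829 ± 1015 to 11802 ± 451 FPKM (0.43). Among all genes tested, 25.9% were called higher and 41.3% lower. Malat1, a nuclear RNA whose end is protected by a triple helix, had 13.6, 9.51, 11.5, 11.1, 38.7 and 16.3 FPKM in set 1 and 405, 508 and 560.5 in set 2. Every set 2 library was far above replicate 5, the highest of set 1 (4.94, SE 0.37, adjusted p = 3.4e-06, and 4.31 after centring). Kcnq1ot1, an imprinted nuclear RNA, rose from 0.83 ± 0.18 to 12.3 ± 1.54 FPKM (2.86). Neat1 (17.8 ± 12.1 and 9.51 ± 13.7), Meg3 and Rian were not called. Of 12 nuclear long noncoding RNAs on the list, 5 were higher, none lower and 7 not called, with a median of 0.50. After centring 4 were higher and 1, Meg3, lower (-1.04), with a median of 0.08. Gas5, a host of small nucleolar RNAs, fell from 996 ± 77.8 to 360 ± 13.4 FPKM (-1.46). Gm42743, which overlaps the histone gene Hist2h2bb and shares 203 of its 25-base stretches with it, rose from 1.07 ± 0.66 to 2190 ± 117. Gm20634, with 78.6% of its stretches in other genes, mainly Hist2h3c1, had means of 0.38 and 748 FPKM. Gm28967, wholly within Scarna10, had 7.08 and 1478. Gm42743, Gm20634 and Gm28967 count in the class sum and together rose by more than it did. Its rise is therefore not one of the other long noncoding RNAs as a whole. The sum without these entries was not tested.

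Ribosomal protein and oxidative phosphorylation genes fell together by a modest amount. Of 80 ribosomal protein genes, 67 were called lower in set 2, 5 higher and 8 not called, with a median of -0.36, and the sum was 146508 to 162891 FPKM in set 1 and 109796 to 119573 in set 2. Among all genes tested, 41.3% were called lower and 25.9% higher. Rpl36a was the largest fall, from 5712 ± 180 to 1226 ± 24.97 FPKM (-2.22, adjusted p = 2.5e-10), while Rpl38 (2158 and 2507 FPKM) and Rps26 (2357 and 2788) were slightly higher in set 2. The largest rise was that of Rpl29 (0.94, and 1.55 after centring). Of 85 nuclear oxidative phosphorylation genes, 63 were lower, 4 higher and 18 not called, with a median of -0.35. Atp5k, a small subunit of ATP synthase, fell from 3346 ± 142 to 950 ± 8.73 FPKM (-1.81). After centring the members went different ways: Rpl36a and Atp5k differed by -1.88 and -1.21, Rpl38 and Rps26 by 0.82 and 0.58, and Rpl41, Rps29, Rps21 and Atp5mpl turned to 0.27, 0.13, 0.13 and 0.34.

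Genes annotated as pseudogenes of any kind carried a large share of the deposited values: 12.6% of the total in set 1 and 10.1% in set 2. Gm13456, with 945 of its 25-base stretches in Eef1a1, ranked 2 in both sets (25305 ± 1825 and 18956 ± 1478 FPKM). Rpl3-ps2, a copy of Rpl3, ranked 4 in both (15136 ± 638 and 16494 ± 338) and was not called. Eif4a-ps4, a copy of Eif4a1, had 14552 ± 559 and 6305 ± 816 FPKM. Amd-ps4, which shares 92.4% of its stretches with other Amd genes, had 962 ± 108 FPKM in set 1 and was listed at 0 in set 2. The level of a parent and its copy cannot be separated in such values.

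Among the remaining protein-coding genes, single genes differed by large amounts. Msh4, a meiotic mismatch repair homolog (0.58 ± 0.22 and 15.8 ± 0.79), Abca12, a lipid transporter of skin (0.91 ± 0.15 and 17.9 ± 2.20), Fgd4, an exchange factor for Cdc42 (21.8 ± 3.63 and 178 ± 17.5), and Dpysl2, a microtubule-binding protein (14.0 ± 1.86 and 120 ± 3.95), were higher in set 2. In the other direction Rab2a, a small GTPase of the early secretory pathway, fell from 1071 ± 102 to 89.8 ± 12.8 FPKM (-3.56), Commd4 from 434 ± 78.8 to 41.1 ± 30.2, and Fastk, a mitochondrial RNA-binding protein, from 278 ± 33.2 to 25.8 ± 2.49. Btg3, an antiproliferative gene, had 12.1 ± 0.94 FPKM in set 1 and was listed at 0 in set 2. Zinc finger genes leaned higher: of 355, 189 were higher, 67 lower and 99 not called, with a median of 0.25, led by Zfp457 (0.49 ± 0.12 and 11.9 ± 1.15) and Zfp488 (8.71 ± 1.92 and 67.6 ± 7.23). Among all genes tested, 25.9% were called higher and 41.3% lower.

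Transcript length and GC content moved with the difference between the sets. Among nuclear protein-coding genes that are neither histone nor ribosomal protein genes, the median difference rose from -0.44 in the shortest of 10 equal classes of transcript length (267 to 1486 bases), where 71.5% were called lower in set 2, to 0.50 in the longest class (6905 bases or more), where 72.8% were called higher. Over 10 classes of GC content it fell from 0.31 (30.96 to 41.28% GC) to -0.51 (57.95 to 74.2% GC), where 79.3% were called lower. When each gene's difference was centred within 25 cells of length and GC content, 6752 genes were called, 3327 higher and 3425 lower. The cells and their medians came from 12279 nuclear protein-coding genes that are neither histone nor ribosomal protein genes. Genes shorter than these, such as small RNAs, were centred with the shortest of them, so not among genes of like length. Of 245 named genes, 167 kept their call and direction and 25 were no longer called. The sign changed for 16 called genes and for 24 that had not been called, 5 of which, such as Hoxa10 (-0.05 to 0.32) and Epcam (-0.10 to 0.27), then passed the test. Another 13 genes became called with the same sign.

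**Figure D5:**
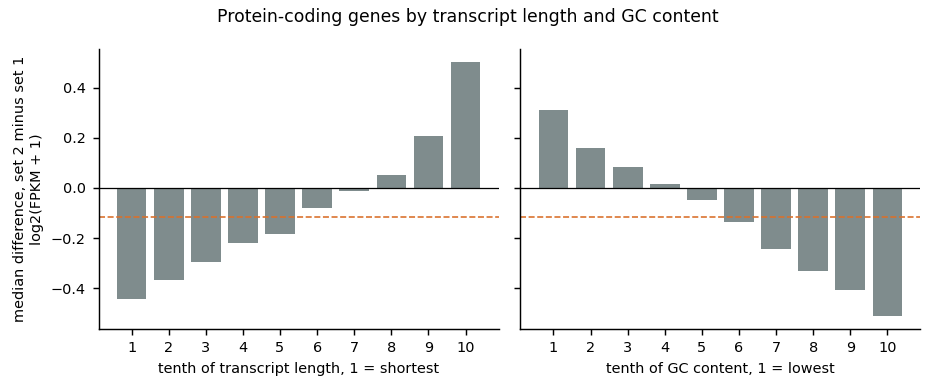
Median difference, set 2 minus set 1, on the log2(FPKM + 1) scale for protein-coding genes in 10 classes of longest transcript length (left) and 10 of GC content (right); the dashed line is the median of all kept genes, -0.12. Bars rise with length from -0.44 to 0.50 and fall with GC content from 0.31 to -0.51.

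Within a set, a few genes varied more than the rest. Rgs5, a pericyte gene, had 28.8 and 25.8 FPKM in replicates 2 and 4 and 6.77 to 8.29 in the other 4 libraries of set 1, against 22.9, 26.7 and 28.4 in set 2. The groups overlapped, and the difference was not called (adjusted p = 0.064). Hbb-bh1, an early embryonic globin, ran from 79.3 to 279 FPKM in set 1 and from 102 to 135 in set 2. Tagln, a smooth muscle protein, ran from 5.94 to 15.4 FPKM in set 1 and was lower in set 2 (2.14, 2.43 and 3.86, -1.50, adjusted p = 0.0012). In set 2, Dkk3, a Wnt antagonist relative, had 4.19, 54.0 and 90.3 FPKM, where set 1 ran from 37.4 to 70.1.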

How the data were processed

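RNA-seq of 9 wild-type kidney samples was used. Total RNA came from kidneys stored in RNAlater and purified with RNeasy Micro columns, followed by standard Illumina library preparation, per the labels' protocols. Selection of RNA, strand and library chemistry are not given in the sources used here. Per the submitters' processing notes, bcl2fastq 2.17.1.14 and Salmon were used with GRCm38. The authors deposited FPKM values per gene in 1 table, and any scaling between libraries is not stated. Its 8 mutant columns were not used. Groups come from sample titles, and the sets from replicate numbers.

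Of 24432 gene IDs, 24222 matched GENCODE release 21. Genes with 1 FPKM or more in at least 3 libraries were compared on log2(FPKM + 1), pseudocount 1, with limma 3.58.1 (variance trend, R 4.3.3), two-sided, Benjamini-Hochberg over 13450 genes, called under an adjusted p of 0.05. Fold differences of low genes are understated on this scale. Class sums were compared on log2 by an exact permutation test (Python 3.11.15, NumPy 2.4.6). Reads per library were estimated from the commonest smallest step of FPKM times length in transcripts of 1500 to 4000 bases, and cover counting error only. The model was tested on simulated data. Shared sequence was measured over 25-base stretches.

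The library sets, members and lists were chosen with earlier results of these data known. Named genes are the 20 highest other protein-coding genes and 5 highest of each class by the lower set mean, the 5 highest and all large members of lineage lists, the 3 highest and up to 3 large of other lists, and the 10 (3 per class) largest called differences each way without overlap and at least 2 FPKM in the higher set. Members of lists described beyond these, and the genes variable within a set, were picked after their values were seen. Alternatives were the pseudocount, the filter, the scaling, 1 variance weight per set, leaving out each library and, added after seeing the data, centring within cells of transcript length and GC content. Some genes that meet this rule are not reported here and were left out of the counts of named genes.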

Additional observations from a re-analysis of the deposited data

Results flagged for a closer look

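Among 216 groups of set 1 values checked (named genes and class sums in 6 libraries), 25 held a library whose gap to its nearest neighbour, as a share of the range, was above Dixon's 95% critical value. Chance flags about 1 in 20 groups, and groups of 3, such as set 2, were not tested. In 19 of the 25 the library apart was replicate 5, each time the highest.

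For replicate 5 these were the sums of long noncoding RNA (0.803), microRNA hairpins (0.72), other small structural RNA (0.833) and small nucleolar RNA (0.822). The genes were Hnrnph1 (0.777), Meg3 (0.848), Inha (0.776), Lars2 (0.693), Zfp488 (0.93), Gm42743 (0.785), Gas5 (0.666), Snord69 (0.791), Rnu11 (1), Hist3h2bb-ps (0.762), Gm15564 (0.713), Rmrp (0.915), Malat1 (0.766), Rian (0.725) and Gm28967 (0.688). The small nucleolar RNA sum, for example, was 13853 FPKM in replicate 5 and 5266 to 6792 in the other 5 libraries, and the long noncoding RNA sum 10872 and 8153 to 8688. Meg3, an imprinted noncoding RNA, was at 226 FPKM there and at 64.2 to 88.9 elsewhere. Replicate 5 also listed the fewest genes at 0 (5312) and had the highest total (963729 FPKM).

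Zfp36l1 (0.631) and Zfp213 (0.677) were lowest and Mc2r (0.635) highest in replicate 1. Bnc2 (0.77) was lowest in replicate 2, at 4.85 FPKM against 6.20 to 6.61. H2afz (0.653) was lowest and Snhg9 (0.683) highest in replicate 4. No cause was tested.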

How the results depend on the processing

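The number of genes called ran from 8390 to 9156 when each library was left out in turn, and was 9047 with a pseudocount of 0.1, 10144 of 20647 genes with no filter, 7548 of 10510 with a filter of 5 FPKM, 8628 with 1 variance weight per set, 8382 after rescaling to the same sum and 8819 after median-ratio scaling. With a pseudocount of 0.1, 739 genes were large and lower in set 2 in place of 466. Centring by length and GC content, chosen after seeing the data, left 3425 genes called lower in place of 5551. The class sum of mitochondrial mRNA ran from -0.0348 to 0.1498 with 1 library left out. Without its highest gene, the mitochondrial rRNA sum moved to -2.73, which is mt-Rnr1 alone, and the remainder class turned to 0.21. After centring the directions of H19 (0.12), Tbx2 (0.16), Aldh1a2 (0.0153), Etv4 (0.15), Atp5mpl (0.34), Hapln1 (-0.17), Six2 (0.0640), Meis2 (-0.38), Calb1 (-0.10), Rps29 (0.13), Eef2 (0.00847), Spry1 (0.25), Cdkn1c (0.16), Rps21 (0.13), Ier2 (0.11) and Rpl41 (0.27) turned, by the alternative's own construction. No named gene changed direction past the threshold under the other settings. No paired analysis was possible because replicates 1 to 6 and 7 to 9 share no number. In set 2 low values of the shortest RNAs rest on few reads, and a gene listed at 0 there is not shown to be absent. Genes at 0 in set 2 include Mir675 and Btg3, with set 1 means of 7870 and 12.1 FPKM. The part of depth in such zeros was not tested.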
